A study of Fragaria x ananassa with 28 samples.

Results

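The small RNAs described here are those of strawberry receptacle, the fleshy part of the fruit, 5 days after an injection of abscisic acid (ABA) or of nordihydroguaiaretic acid (NDGA). The members are the small RNA libraries that the labels place at day 5 in either treatment, 2 with ABA and 2 with NDGA, and they are 4 of the 28 libraries of the series. ABA is the hormone known to promote ripening of this fruit. NDGA is named in the labels as a blocker of ABA synthesis, and it is also known as an inhibitor of lipoxygenases, so that it is not specific to ABA. All fruit came from greenhouse plants of 'Toyonoka', an octaploid cultivar of Fragaria x ananassa. The ABA fruit received 100 µL of a 1 µM solution, the NDGA fruit 100 µL of a 100 µM solution, and the water fruit 100 µL of distilled water, in each case into the core of the receptacle. ABA and NDGA fruit of day 8 and water fruit of day 5, with 2 small RNA libraries in each group, are given beside them. Water fruit of days 0 and 8 are given for a few names only. ABA and NDGA were thus given at different doses. RNA of 10 fruits was pooled for a group. The labels do not tell whether the 2 libraries of a group had a pool each, and p-values therefore cover only the spread among libraries, which may be technical.

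MicroRNAs (miRNAs) are short RNAs cut from hairpin precursors, and they guide an argonaute protein to messenger RNAs with a matching site, which are then cut or translated less. In plants many miRNA families and their targets are conserved, and the targets are often transcription factors that set the phase of growth, organ shape and the response to auxin. In fruit such families are known from work on flower and fruit development, and ABA is known to change several of them in other tissues. The deposited table names each miRNA by number, letter and arm (5p or 3p), and names with the same number belong to the same family here.

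Levels are RPM, reads scaled by the authors to a fixed number of clean reads. The table lists 371 miRNA names, of which 206 did not reach 10 RPM in at least 2 of the 14 small RNA libraries, and the others were tested. Known miRNAs took 16.7% and 10.8% of clean reads in the ABA libraries, and 17.5% and 21.7% in the NDGA libraries, so that ABA replicate 2 had the smallest share of the 4. The part of this share in the differences below was not tested beyond rescaling the libraries to a common sum. These shares came from 2375084 and 1596510 reads in ABA and from 2489029 and 3246770 reads in NDGA. The smallest value above 0 stood for 9 and 7 reads in ABA and for 11 and 9 reads in NDGA. A listed 0 thus need not be a count of 0, and such a name is said to be listed at 0. Water replicate 2 of day 5 and NDGA replicate 2 of day 8 carry RPM on another total than their clean reads. On clean reads their values would be 0.442 and 0.281 times those printed, and known miRNAs would take 12.3% and 8.96% of clean reads there. Neither library is in the day 5 comparison of ABA and NDGA. Rescaling them changes the spread that the test shares over groups, and not the ABA to NDGA differences. Libraries did not all lie closest to their own group. Over the tested names the log2 levels of the 2 ABA libraries correlated at 0.845 and those of the 2 NDGA libraries at 0.766, while NDGA replicate 2 and ABA replicate 1 correlated at 0.834, a description in which all values share a scaling. In the mRNA libraries of the same groups, seed (achene) storage transcripts took 0.0221% and 0.0235% of RPKM in ABA, 0.0185% and 0.0166% in NDGA, and 0.469% and 0.478% in water. In ABA 113 and 112 of these 152 transcripts were at 0, and in NDGA 107 and 110, and their part in the miRNA results was not tested.

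Of the tested names, 17 passed the test (10.3%). Of them, 7 were higher in ABA than in NDGA (4.24%) and 10 were lower (6.06%) at an adjusted p below 0.05 (limma over all 14 small RNA libraries). The names higher in ABA include miR157a-5p of the family that holds back the change to the adult phase, and 6 names without an assigned role here. The names lower in ABA include miR319a-3p, which acts on TCP transcription factors, and 2 names of the auxin-linked miR393. They also include miR482e-3p and miR1507a, known as regulators of disease resistance genes. Of the lower names, miR393-3p, miR1105 and miR1507a were listed at 0 in both water libraries of day 5, as in ABA. Names whose 2 groups did not overlap numbered 22 in the higher direction (13.3%) and 43 in the lower one (26.1%). The median difference over all tested names was -0.01 (log2). Among the tested names, 19 were listed at 0 in all 4 libraries. They could not differ, yet they count in these shares and in this median. Of the 17 called names, 4 were listed at 0 in both NDGA libraries and 5 in both ABA libraries. Another 2 were at 0 in a single library, and 6 had values above 0 in all 4 libraries, 2 of them higher and 4 lower. Of the 17, 5 reached the minimum of 10 RPM through 1 of the compared groups alone, 4 of them (miR2089-3p, miR5286a, miR5497 and miR2875) through ABA and 1 (miR1524) through NDGA. These 5 had to differ to be tested at all, so their calls are a description. Without ABA replicate 1, ABA replicate 2, NDGA replicate 1 or NDGA replicate 2, the test called 7, 5, 7 and 12 names.

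**Figure D1:**
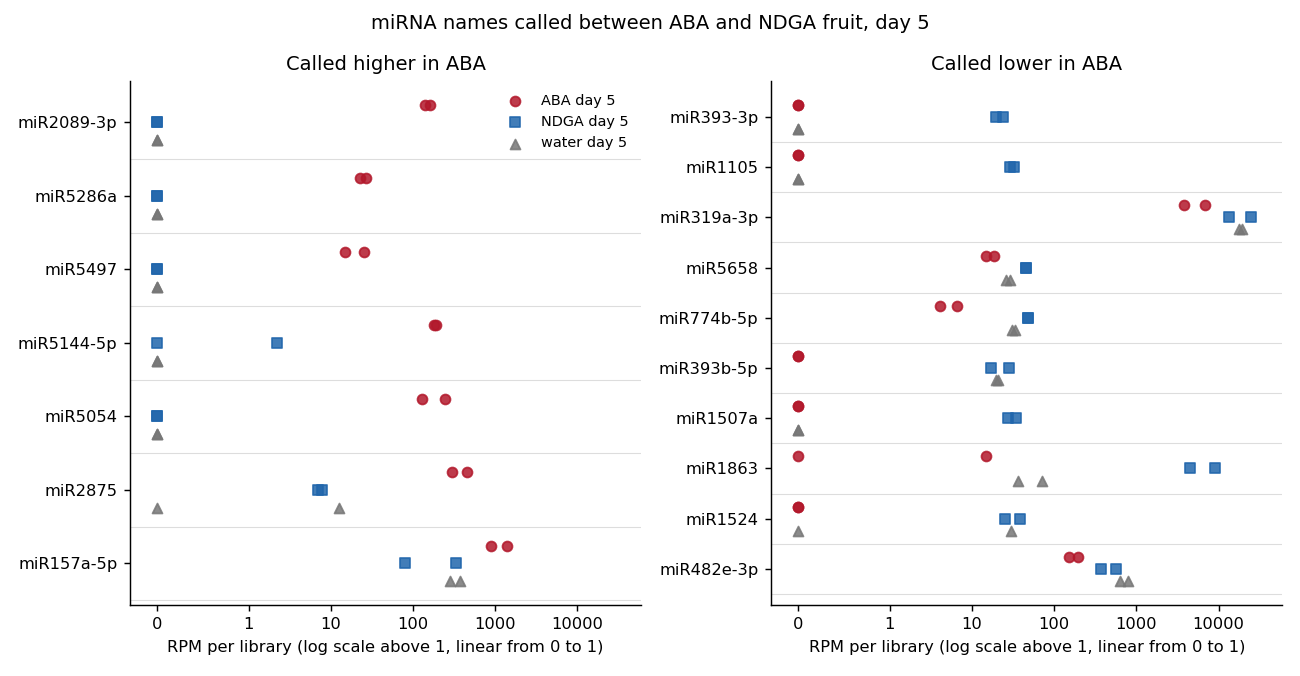
RPM of the 17 called names in each day 5 library, with ABA as circles, NDGA as squares and water as triangles, on an axis that is logarithmic above 1 RPM and linear from 0 to 1. The ABA points lie to the right of the NDGA points for 7 names and to their left for 10, and miR319a-3p at 6843 and 3835 RPM in ABA, against 24941 and 13409 RPM in NDGA, is the most abundant of them.

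**Figure D2:**
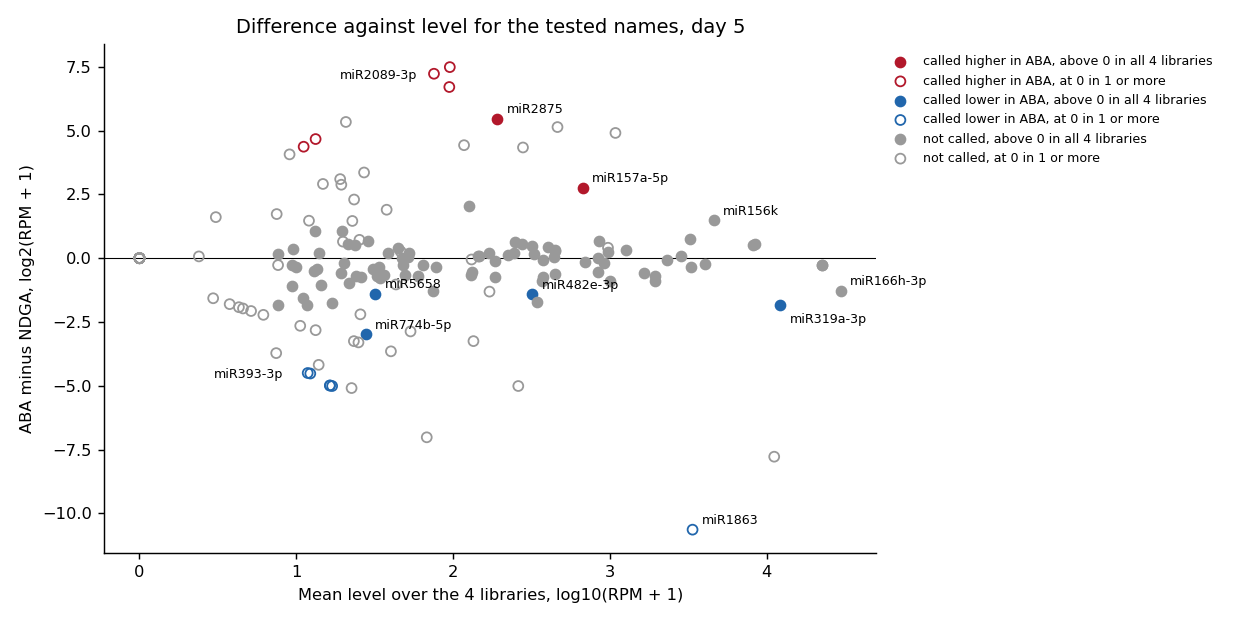
Each of the tested names by its mean level over the 4 libraries, as log10(RPM + 1), and its ABA minus NDGA difference, as log2(RPM + 1), with open circles for names listed at 0 in at least 1 of the 4 libraries. Filled coloured circles mark the 6 called names above 0 in all 4 libraries, and most of the tall differences belong to open circles.

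The miR156 and miR157 family limits SPL (squamosa promoter-binding-like) transcription factors, and miR172 limits AP2-type factors, with which it forms the timer of the juvenile to adult change in plants. miR157a-5p stood at 1411 and 879 RPM in ABA, against 79.5 and 331 RPM in NDGA. Both ABA libraries lay above both NDGA libraries, and above the water libraries at 369 and 282 RPM. The mean was 1145 ± 376 RPM in ABA and 205 ± 178 RPM in NDGA (SD, n = 2 each), a ratio of 5.58, and the log2 difference was 2.77 ± 0.64 (SE, limma, adjusted p = 0.0339). Leaving out 1 library gave log2 differences of 1.75 to 3.79. The call was lost in 6 of 18 alternatives, among them those without ABA replicate 1 (limma, adjusted p = 0.157), ABA replicate 2 (adjusted p = 0.133) or NDGA replicate 1 (adjusted p = 0.141), with the compared groups fitted alone (adjusted p = 0.212) and with the libraries on another total rescaled to clean reads (adjusted p = 0.167).

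miR156k, the most abundant name of this role, had 8429.5 and 5130.2 RPM in ABA, against 1654 and 3271 RPM in NDGA. The groups did not overlap, and the water libraries at 3764 and 1700 RPM lay nearer to NDGA as deposited. On clean reads the second water library would be at 751 RPM, below both NDGA libraries. Its log2 difference of 1.5 ± 0.53 (SE) did not pass (limma, adjusted p = 0.138), and it passed after rescaling to a common sum of known miRNAs (adjusted p = 0.0435) and under median-ratio scaling (adjusted p = 0.04) or quantile normalization (adjusted p = 0.0211). The other arm of the family, miR156j-3p, had 252 and 149 RPM in ABA, against 29.3 and 74.4 RPM in NDGA, with an adjusted p of 0.161 (limma). Of 9 tested names in the phase and AP2 list, 1 was called higher and 0 lower, against 4.24% and 6.06% of all tested names. In 4 the ABA values lay above and in 1 below those of NDGA, against 13.3% and 26.1% of all tested names. The list median of 0 (log2) was the value of miR172a, which was listed at 0 in all 4 libraries and could not differ.

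miR172, summed over its names, had 57.7 and 32.3 RPM in ABA, against 184 and 147 RPM in NDGA, and 133 and 178 RPM in water. The ABA libraries were the lowest of the 6. The log2 difference of the sum was -1.90 ± 0.50 (SE, limma on 136 sums by number, adjusted p = 0.0424). With the highest name in place of the sum it was -1.08 ± 0.33 (SE) and did not pass (limma, adjusted p = 0.0883). Its names were not the same in all libraries, with miR172d-5p alone in ABA, at 57.7 and 32.3 RPM. In NDGA the same name stood at 88.2 and 57.9 RPM, beside miR172g-3p at 95.7 RPM in replicate 1 and miR172c-3p at 89.3 RPM in replicate 2. These 3p names were listed at 0 in both ABA libraries, so the sum and the highest name compare different arms. For miR172d-5p by itself the log2 difference was -0.71 ± 2.29 (SE), and it was not called.

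miR319 limits TCP factors that set leaf and petal shape, and miR159, which is close to it in sequence, limits GAMYB factors of the gibberellin and ABA response. miR319a-3p had 6843 and 3835 RPM in ABA, against 24941 and 13409 RPM in NDGA. The 2 groups did not overlap, and water at 17847 and 19280 RPM lay with NDGA, although on clean reads the second water library would be at 8517 RPM, between the groups. The ABA mean was 0.278 times the NDGA mean, and the log2 difference was -1.84 ± 0.37 (SE, limma, adjusted p = 0.0202). The call was lost in 6 of 18 alternatives. These were the fits without ABA replicate 2 (limma, adjusted p = 0.133) or NDGA replicate 1 (adjusted p = 0.136), after rescaling to a common sum (adjusted p = 0.0854), under quantile normalization (adjusted p = 0.0838), with the compared groups alone (adjusted p = 0.188) and with the libraries on another total rescaled to clean reads (adjusted p = 0.167).

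miR319 and miR319a-3p carried nearly the same values in 13 libraries, so that their sum may count the same reads under both names. In ABA replicate 2 miR319 was listed at 0 and miR319c at 3713 RPM, a value close to the 3835 RPM of miR319a-3p in that library. miR159a-3p stood at 25951 and 15123 RPM in ABA, against 16953 and 32836 RPM in NDGA. The groups overlapped, and the log2 difference of -0.25 ± 0.49 (SE, limma, adjusted p = 1) changed sign after rescaling to a common sum, where it was 0.29, and under quantile normalization, where it was 0.79. Of 4 tested names in the MYB and TCP list, 0 were called higher and 1 lower, against 4.24% and 6.06% of all tested names. Like the miR319 names, miR159a and miR159a-3p carried nearly the same values, in all 14 libraries. The list median of -1.04 (log2) thus counts near-duplicate names and shows no trend of the list.

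miR393 limits the auxin receptors TIR1 and AFB, miR160 and miR167 limit auxin response factors, and miR390 triggers small RNAs against other members of that family. miR393-3p was listed at 0 in both ABA libraries, against 19.4 and 23.9 RPM in NDGA (limma, adjusted p = 3.11e-04). miR393b-5p was also listed at 0 in ABA, against 27.9 and 17.2 RPM in NDGA (limma, adjusted p = 0.035), a call lost in 6 of 16 alternatives, leaving out any of the 4 libraries and quantile normalization (adjusted p = 0.0844) among them. miR393a went the opposite way, with 19.4 and 12.9 RPM in ABA and 0 in both NDGA libraries (limma, adjusted p = 0.0503).

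The names listed for miR393 thus differed between the 2 groups. The remaining 3p names, miR393a-3p at 1.96 and 0 RPM and miR393b-3p at 0 and 2.70 RPM in ABA, were both listed at 0 in NDGA. The sum over 5 names was 21.3 and 15.6 RPM in ABA, against 47.3 and 41.2 RPM in NDGA. ABA lay below NDGA and near water at 21.4 and 26.9 RPM as deposited, and the log2 difference of -1.23 ± 0.34 (SE) did not pass (limma on sums, adjusted p = 0.0536). miR167d, the most abundant auxin-linked name, had 1045 and 599 RPM in ABA, against 521 and 1217 RPM in NDGA. These groups overlapped, with a log2 difference of -0.01 ± 0.50 (SE) that was 0.53 after rescaling to a common sum, 0.22 under median-ratio scaling and 0.11 under quantile normalization. Of 6 tested auxin-linked names, 0 were called higher and 2 lower, against 4.24% and 6.06% of all tested names. Both calls were miR393 names listed at 0 in ABA, where miR393a was listed instead. The list median of -1.36 (log2) includes these exchanged names, so it is no measure of the families.

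**Figure D3:**
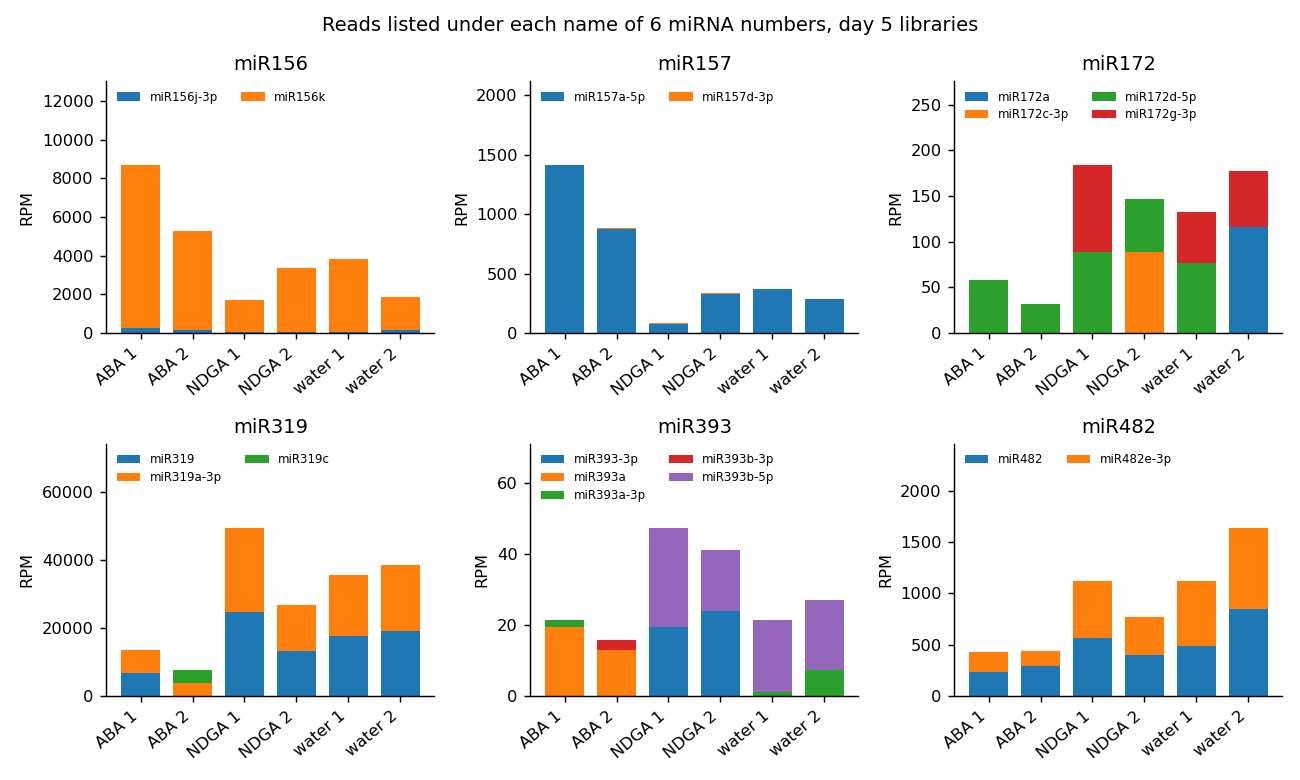
RPM listed under each name of 6 miRNA numbers, stacked, in the day 5 libraries of ABA, NDGA and water, with a bar for each library. The bars of miR156 and miR157 are tallest in ABA and those of miR172, miR319, miR393 and miR482 are lowest there, while the colours show that miR172, miR319 and miR393 had different names listed in different libraries, and miR319 and miR319a-3p hold nearly the same values.

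miR165 and miR166 limit the HD-ZIP III factors that give organs an upper and a lower side. miR166h-3p, the most abundant name over the 4 libraries, had 21405 and 14110 RPM in ABA, against 38158 and 46065 RPM in NDGA. Both ABA libraries were below both NDGA libraries, and water at 45789 and 70110 RPM lay with NDGA or above it as deposited. On clean reads the second water library would be at 30970 RPM, between the groups. The mean was 17760 ± 5159 RPM in ABA and 42110 ± 5591 RPM in NDGA (SD, n = 2 each), and the log2 difference of -1.27 ± 0.36 (SE) did not pass (limma, adjusted p = 0.0614). It passed after rescaling to a common sum (limma, adjusted p = 0.0249), under median-ratio scaling (adjusted p = 0.0365) and quantile normalization (adjusted p = 2.04e-05), and without the 2 libraries scaled to another total (adjusted p = 0.0202).

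The rarer miR165a-3p had 9.33 and 7.70 RPM in ABA, against 17.7 and 19.2 RPM in NDGA, a log2 difference of -1.04 ± 0.38 (SE, limma, adjusted p = 0.154). miR166d-5p, from the other arm, had 356 and 218 RPM in ABA, against 445 and 472.1 RPM in NDGA. In miR166h-3p, miR165a-3p and miR166d-5p ABA was lower without overlap, as in 26.1% of all tested names. Of 4 tested names in the list 0 were called higher and 0 lower, with a list median of -0.88 (log2). The remaining name, miR166a, was listed at 0 in all 4 libraries, so it could not differ. It had 45173 and 69122 RPM in water of day 5, where miR166d-5p was listed at 0. The names listed for miR166 thus differed between water and the treatments.

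miR482 and miR2118 match a conserved stretch of NBS-LRR disease resistance messages and start the production of phased small RNAs from them, a role also known for miR1507 in legumes. miR482e-3p had 194 and 153 RPM in ABA, against 559 and 374 RPM in NDGA. The ABA and NDGA groups did not overlap. Water at 636 and 799 RPM was above both as deposited, and on clean reads the second water library would be at 353 RPM. The log2 difference was -1.40 ± 0.36 (SE, limma, adjusted p = 0.042), and the call was lost in 14 of 18 alternatives, leaving out any of the 4 libraries among them. It was also lost with the libraries on another total rescaled to clean reads (limma, adjusted p = 0.156).

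miR482, listed beside it, had 230 and 286 RPM in ABA, against 567 and 398.3 RPM in NDGA, with an adjusted p of 0.389 (limma), and the sum of both gave a log2 difference of -1.11 ± 0.39 (SE, limma on sums, adjusted p = 0.119). miR1507a was listed at 0 in both ABA libraries, against 27.4 and 34.3 RPM in NDGA (limma, adjusted p = 0.0383), and it was also listed at 0 in water of day 5. In water of the other days it had 23.3 and 16.7 RPM (day 0) and 22.9 and 29.6 RPM (day 8). Its call was lost in 6 of 16 alternatives, leaving out any of the 4 libraries and testing without a filter (limma, adjusted p = 0.0506) among them. miR2118-5p had 0 and 2487 RPM in ABA, against 1402 and 0 RPM in NDGA, so that replicates differed more than groups. Where it was listed at 0, the name miR2118 stood at 252 RPM (ABA replicate 1) and 269 RPM (NDGA replicate 2). Of 5 tested names in the list of NBS-LRR and phased RNA triggers, 0 were called higher and 1 lower, with miR1507a outside that list. Over all tested names these shares were 4.24% and 6.06%.

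The other role lists gave no call. Of 7 tested names of miR164, miR169 and miR171, which limit NAC, NF-YA and SCARECROW-like factors, 0 passed in either direction, and miR164b had 539 and 409 RPM in ABA, against 244 and 581 RPM in NDGA. Of 3 names of miR394 and miR396 none passed, and miR396b, which limits growth-regulating factors, had 1754 and 995 RPM in ABA, against 1815 and 3242 RPM in NDGA. ABA lay below NDGA there by a narrow gap, with a log2 difference of -0.88 ± 0.55 (SE, limma, adjusted p = 0.499).

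miR168 and miR162 limit argonaute 1 and dicer-like 1, the proteins that load and cut small RNAs. miR168 had 177 and 94.1 RPM in ABA, against 330 and 137 RPM in NDGA, and the groups overlapped. Of 3 tested names of this machinery list 0 were called. Of 5 tested names of miR397, miR398 and miR408, which spare copper by limiting copper proteins, 0 were called, and miR408-3p had 1653 and 1031 RPM in ABA, against 615 and 1787 RPM in NDGA. NDGA replicate 2 was the highest and NDGA replicate 1 the lowest of the 4 for this name.

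Of 4 tested names of the nutrient miRNAs miR395, miR399 and miR827, 0 were called. miR827-5p, of a family that acts in phosphate supply, had 370 and 391 RPM in ABA, against 0 and 352 RPM in NDGA, so the gap rests on NDGA replicate 1, where miR827 stood at 20.7 RPM instead. Of 2 tested names of miR858, known to limit MYB factors of the flavonoid pathway, 0 were called, and miR858a had 41.5 and 25.5 RPM in ABA, against 0 and 80.0 RPM in NDGA. In NDGA replicate 1 the name miR858 stood at 38.4 RPM instead.

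Another 6 higher names carried no role that the files give. miR2089-3p had 158.9 and 139.4 RPM in ABA, against 0 in both NDGA libraries. miR5286a had 26.7 and 22.4 RPM in ABA, against 0 in both NDGA libraries. miR5497 had 25.5 and 15.1 RPM in ABA, against 0 in both NDGA libraries. These 3 names were listed above 0 in the 2 ABA libraries of day 5 and in none of the other 12 small RNA libraries, so that the minimum of 10 RPM admitted them only because ABA was high, and their p-values are not given.

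miR5144-5p had 180 and 193 RPM in ABA, against 0 and 2.20 RPM in NDGA (limma, adjusted p = 4.04e-05). miR5054 had 248 and 129 RPM in ABA, against 0 in both NDGA libraries (limma, adjusted p = 4.76e-04). Both were listed at 0 in water of day 5 and again high in ABA of day 8, miR5144-5p at 388 and 380 RPM and miR5054 at 189 and 213 RPM. In water of day 8 miR5054 was listed at 4.47 and 42.6 RPM. miR2875 had 452 and 297 RPM in ABA, against 7.74 and 6.95 RPM in NDGA, a ratio of 51.0 and a log2 difference of 5.46 ± 1.2 (SE). Its call, for a name that was tested through ABA alone, was lost when any of the 4 libraries was left out. At day 8 miR2875 was at 4.95 and 5.04 RPM in ABA, against 5.15 and 0 RPM in NDGA.

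miR4398 was not called, with 642 and 798 RPM in ABA, against 0 and 411 RPM in NDGA (limma, adjusted p = 0.228). Of the higher names, miR5144-5p and miR5054 passed in all 17 alternatives in which they were tested, each left-out library included. miR2089-3p, miR5286a and miR5497 could not be tested without either ABA library, since 1 library at 10 RPM is too few for the minimum.

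Among the lower names without a role here, miR1105 was listed at 0 in both ABA libraries, against 32.6 and 28.9 RPM in NDGA (limma, adjusted p = 0.0011). miR1524 was listed at 0 in ABA, against 38.8 and 24.9 RPM in NDGA. Like miR393-3p, miR1105 passed in all 16 alternatives in which it was tested, while miR1524 lost its call when any of the 4 libraries was left out.

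miR774b-5p had 6.66 and 4.12 RPM in ABA, against 48.4 and 48.0 RPM in NDGA, and 30.6 and 33.2 RPM in water. ABA was the lowest group, and its mean was 0.112 times that of NDGA, with a log2 difference of -2.97 ± 0.69 (SE, limma, adjusted p = 0.0339). miR5658 had 18.5 and 15 RPM in ABA, against 45.4 and 45.1 RPM in NDGA, a log2 difference of -1.39 ± 0.29 (SE, limma, adjusted p = 0.0264), with water between them at 25.6 and 29.2 RPM as deposited. On clean reads the second water library would be at 12.9 RPM, below both ABA libraries. Both calls were lost when any of the 4 libraries was left out. In all, that of miR774b-5p was lost in 8 of 18 alternatives, quantile normalization (limma, adjusted p = 0.0673) and the rescaling to clean reads (adjusted p = 0.0811) among them. That of miR5658 was lost in 9 of 17, with the common sum (limma, adjusted p = 0.204, log2 difference -0.87), median-ratio scaling (adjusted p = 0.104), quantile normalization (adjusted p = 0.189), the compared groups alone (adjusted p = 0.146) and the rescaling to clean reads (adjusted p = 0.362) among them.

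miR1863 had the largest difference in size among the called names. It had 14.7 and 0 RPM in ABA, against 4455 and 9006 RPM in NDGA (limma, adjusted p = 0.0395), and water of day 5 had 71.7 and 36.1 RPM. At day 8 the single high library was ABA replicate 2 at 11483 RPM, beside 15 RPM in ABA replicate 1, against 38.9 and 43.8 RPM in NDGA. Its call was lost in 10 of 17 alternatives, leaving out any of the 4 libraries among them.

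Names of the same number were also summed. Of 136 sums by number, 15 were called (11%), of which 7 were higher in ABA (5.15%) and 8 were lower (5.88%). Of the 15, 6 reached the minimum through 1 of the compared groups alone, 4 through ABA and 2 (miR1524 and miR3627) through NDGA. Of 30 numbers with several names listed in the 4 libraries, 17 had different names listed in different libraries, and in 12 the highest name was not the same in all 4. None of the 3 names of miR3627 reached the minimum for a test of its own. Their sum was 4.49 and 3.51 RPM in ABA, against 43.4 and 51.8 RPM in NDGA, a log2 difference of -3.28 ± 0.47 (SE), and with the highest name in place of the sum it was -3.02 ± 0.46 (SE). In both ABA libraries the sum was miR3627a alone. In NDGA replicate 1 it was miR3627-5p at 38.3 RPM and miR3627-3p at 5.07 RPM, and in NDGA replicate 2 miR3627a at 40.7 RPM and miR3627-3p at 11.1 RPM. The sum was also low in water, at 2.32 and 3.08 RPM, so the 2 NDGA libraries stood apart from the other 4.

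The same contrast 3 days later used other libraries, but both days share the same estimate of the spread for each name, from all 14 libraries. Calls at the 2 days are therefore not independent of each other. At day 8, 17 of the tested names were called (10.3%), 10 higher (6.06%) and 7 lower (4.24%), and 6 names were called at both days, which is 35.3% of each list. They were miR5144-5p, miR5054 and miR157a-5p, higher in ABA at both days, and miR393-3p, miR1105 and miR319a-3p, lower at both days. miR157a-5p had 1037 and 1045 RPM in ABA of day 8, against 183 and 80.6 RPM in NDGA of day 8. miR319a-3p had 7000.4 and 7085 RPM in ABA of day 8, against 30722 and 27606 RPM in NDGA of day 8. Neither name overlapped between treatments at either day. On clean reads NDGA replicate 2 of day 8 would be at 7769 RPM for miR319a-3p, close to ABA, and the day 8 difference would not pass (limma, adjusted p = 0.415). On that scale 4 names were called at both days, without miR157a-5p and miR319a-3p.

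miR156k passed at day 8, with 7528 and 7659 RPM in ABA, against 1499 and 938 RPM in NDGA (limma, adjusted p = 0.0132), and its difference at day 5 minus that at day 8 was -1.18 (log2, limma, adjusted p = 0.787). Of the 17 names called at day 5, 12 had the same sign at day 8. Over 71 names above 0 in all 8 libraries the 2 days' differences correlated at 0.638 across names, and 44 had the same sign, which describes these names without a test. The difference between the days itself passed for 8 names (4.85%), all of them listed at 0 in both libraries of at least 1 of the 4 groups and 5 of them tested through 1 of these groups alone, and for 0 of the 71 names above 0 in all 8 libraries (limma, with 6 at an unadjusted p below 0.05).

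**Figure D4:**
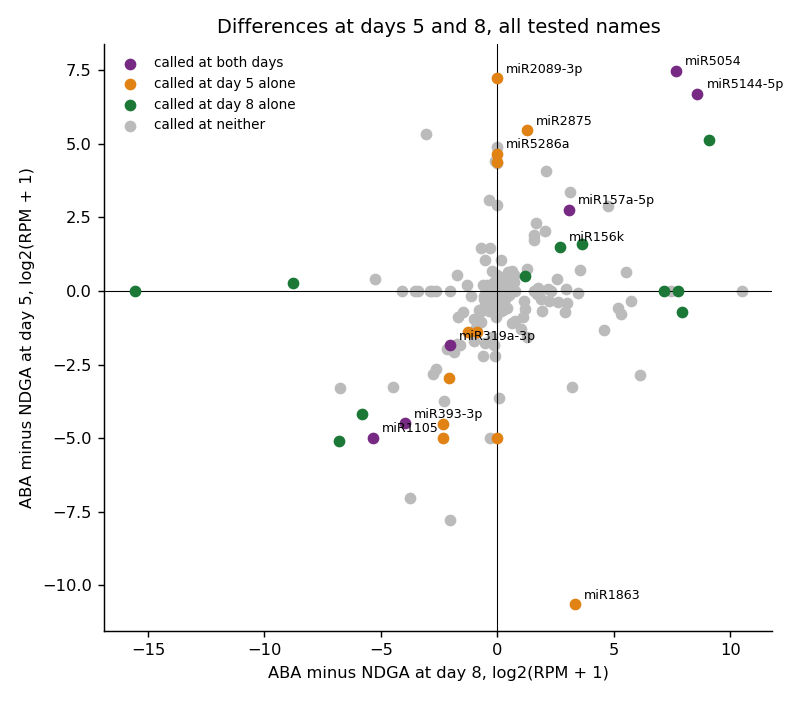
ABA minus NDGA differences of the tested names, as log2(RPM + 1), at day 8 along the horizontal axis and at day 5 along the vertical axis. The 6 names called at both days lie in the upper right and lower left, while miR2089-3p, at 7.23 on the day 5 axis, lies at 0.00 on the day 8 axis, and miR1863 lies at -10.64 on the day 5 axis and 3.34 on the day 8 axis.

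Water of day 5 was set beside both treatments, and each comparison shares libraries with the main one. ABA against water gave 17 called names (10.3%), 9 higher (5.45%) and 8 lower (4.85%), and NDGA against water 4 (2.42%), 3 higher (1.82%) and 1 lower (0.606%). In both comparisons with water miR166a was called lower, listed at 0 in ABA and NDGA and at 45173 and 69122 RPM in water. Its relative miR166d-5p, listed at 0 in both water libraries, was called higher in both comparisons. With water replicate 2 rescaled to its clean reads ABA against water gave 10 calls. miR319a-3p differed by -1.86 between ABA and water (log2, limma, adjusted p = 0.015) and by -0.02 between NDGA and water (adjusted p = 1), and on clean reads the first of these was -1.27 (adjusted p = 0.392). miR482e-3p differed by -2.04 between ABA and water (log2, limma, adjusted p = 0.00888) and by -0.64 between NDGA and water (adjusted p = 0.642), and on clean reads the first of these was -1.45 (adjusted p = 0.162). For miR1105 the order was the opposite, with a listed 0 in ABA and in water. miR393-3p was likewise listed at 0 in ABA and in water, and above 0 in NDGA. miR157a-5p differed by 1.78 between ABA and water (log2, limma, adjusted p = 0.156) and by -0.99 between NDGA and water (adjusted p = 0.642).

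The messenger RNAs of the gene families that these miRNAs are known to limit were read from the mRNA libraries of the same groups, as RPKM. They were matched by description, so transcripts that are no targets can enter the counts. Of 925 tested transcripts of the target families, 21 were higher in ABA (2.27%) and 26 lower (2.81%), against 3.05% higher and 3.4% lower (6.45% together) among all 99136 tested transcripts, so their share was no larger than the background. The assembly can hold several forms of 1 gene that share reads, so single forms are uncertain. The 47 calls in both directions became 20 when the 2 treatments were fitted alone, and 24 to 29 when a library was left out.

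Of 39 SPL transcripts, 2 were higher and 5 lower. SPL3 (comp100650_c0_seq2), of the group known as a target of miR156 and miR157 in Arabidopsis, was listed at 0 in both ABA libraries, against 3.28 and 4.18 RPKM in NDGA (limma, adjusted p = 8.82e-04). SPL18 (comp103156_c0_seq2) had 2.23 and 1.05 RPKM in ABA, against 10.7 and 8.67 RPKM in NDGA (log2 difference -2.05 ± 0.33, SE, limma, adjusted p = 0.00174). The 2 higher ones were forms of SPL12, of a group without the miRNA site in Arabidopsis, and 1 of them (comp101897_c0_seq3) had 47.3 and 48.8 RPKM in ABA, against 33.1 and 31.0 RPKM in NDGA. SPL7 (comp105329_c0_seq4), also of that group, was lower, with 2.34 and 2.27 RPKM in ABA, against 6.97 and 9.12 RPKM in NDGA. The remaining lower calls were all forms of comp100650 and comp103156, so the calls do not divide by the miRNA site. Summed over the family, SPL transcripts had 742 and 797 RPKM in ABA, against 761 and 755 RPKM in NDGA, with overlap.

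Of 22 TCP transcripts, 0 were higher and 3 lower, which were TCP7, TCP14 and TCP21, of the class that miR319 is not known to act on in Arabidopsis. TCP21 (comp106771_c0_seq1) had 82.6 and 84.2 RPKM in ABA, against 122 and 142 RPKM in NDGA (limma, adjusted p = 0.00811). Of 4 GAMYB, 1 TIR1, 19 AP2 and 22 growth-regulating factor transcripts, 0 were called. Of 13 HD-ZIP III transcripts, 1 was lower, ATHB-14 (comp106823_c1_seq1) with 0.489 and 0.930 RPKM in ABA, against 3.06 and 3.43 RPKM in NDGA (limma, adjusted p = 0.0201).

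Of 61 auxin response factor transcripts, 5 were higher and 1 lower. ARF17 (comp106865_c0_seq8), a target of miR160 in Arabidopsis, had 120 and 110 RPKM in ABA, against 53.9 and 55.2 RPKM in NDGA (log2 difference 1.06 ± 0.15, SE, limma, adjusted p = 4.89e-04). The summed level of miR160 was 17.7 and 11.1 RPM in ABA, against 42.6 and 20.0 RPM in NDGA, lower without overlap but not past the test (limma on sums, adjusted p = 0.366). Of 11 transcripts of argonaute 1, argonaute 2 and dicer-like 1, 2 were higher, both argonaute 2. The larger change (comp104246_c0_seq5) was 45.0 and 61.2 RPKM in ABA, against 7.66 and 4.70 RPKM in NDGA, a log2 difference of 2.93 ± 0.32 (SE, limma, adjusted p = 8.1e-05).

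Among copper proteins, 2 were higher and 3 lower of 78. Basic blue protein, a copper protein known as a target of miR408, had 4.53 and 6.15 RPKM in ABA, against 26.0 and 37.5 RPKM in NDGA (comp100135_c0_seq1, log2 difference -2.36 ± 0.28, SE, limma, adjusted p = 1.62e-04), while miR408-3p overlapped between the groups. A copper and zinc superoxide dismutase (comp105589_c0_seq6), of the family known as a target of miR398, had 42.3 and 42.9 RPKM in ABA, against 18.8 and 21.9 RPKM in NDGA (limma, adjusted p = 4.47e-04). Of 598 tested transcripts with a disease resistance description, 9 were higher and 11 lower. The lower calls included forms of disease resistance response protein 206, which is not an NBS-LRR protein. Of these, comp100416_c0_seq2 had 7.54 and 10.2 RPKM in ABA, against 39.3 and 28.9 RPKM in NDGA. The summed level of all transcripts with such a description was 2010 and 1990 RPKM in ABA, against 2061 and 2031 RPKM in NDGA.

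**Figure D5:**
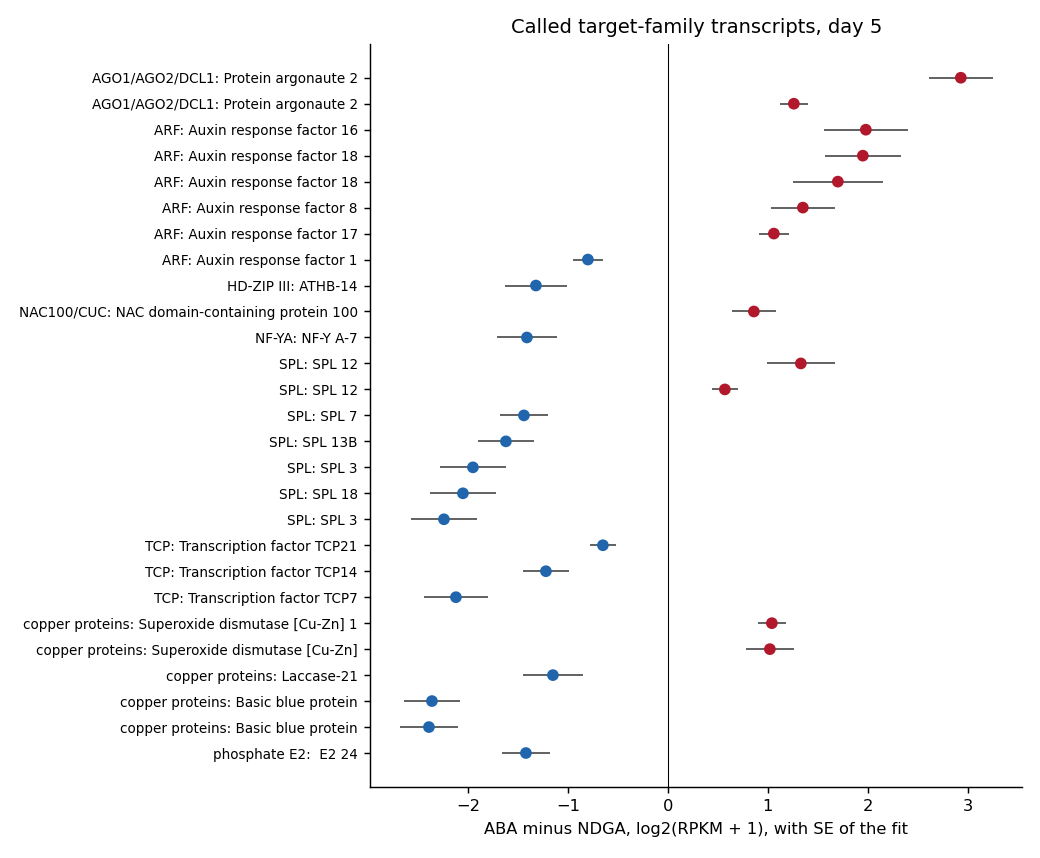
ABA minus NDGA differences, as log2(RPKM + 1) with the SE of the fit, of the 27 called transcripts of the target families other than disease resistance genes, with higher ones in red and lower ones in blue. Argonaute 2 and 5 auxin response factors lie to the right of 0, and the 3 TCP factors and 5 of 7 SPL factors lie to the left.

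The authors' deposited table predicts targets for some of these miRNAs by a method that the files do not state. In the authors' deposited table miR157a-5p had 33 predicted targets, of which 7 were tested here, 3 called higher in ABA and 1 lower. The lower one was the SPL3 form named above (comp100650_c0_seq2), which is also predicted for miR156k, and the 3 higher ones had no description. Among these 3, comp102851_c1_seq4 and comp102851_c1_seq5 are forms of the same assembled component and can share reads. Over all tested transcripts 3.05% were higher and 3.4% lower, and so few predicted targets allow no comparison with these shares. For miR319a-3p the authors' deposited table had 25 predicted targets, of which 11 were tested here, 1 higher and 0 lower. That transcript was described as the E3 ubiquitin ligase BIG BROTHER (comp90195_c0_seq1), an enzyme known to limit organ size in Arabidopsis, and it had 5.48 and 4.92 RPKM in ABA, against 0.234 and 1.17 RPKM in NDGA (limma, adjusted p = 0.0243). For miR482e-3p 4 of the 43 targets in the authors' deposited table were tested, and 0 were called.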

How the data were processed

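The values of known miRNAs are RPM as the authors deposited them, reads scaled to clean reads, although the deposited sheet is named for RPKM. The deposited clean reads, a count for each library after the authors' cleaning, were 14214356 to 14968367 in the 4 libraries, and multiplying RPM by that count returned whole numbers (tolerance 0.1) for 100% of values. Water replicate 2 of day 5 and NDGA replicate 2 of day 8 were scaled to another total and used as deposited. mRNA values are deposited RPKM on transcripts that the authors assembled, per the file headers. The sources used here name no aligner, miRNA database or prediction method, and miRNA sequences were not used here. Reads of PCR products without molecular identifiers are not independent molecules, and the number of reads limits precision for rare names. From here, names with 10 RPM or more in at least 2 of 14 libraries were tested with limma 3.58.1 in R 4.3.3 on log2(RPM + 1) with a trended prior (7 residual and 1.15 prior degrees of freedom), 7 groups, no covariate and Benjamini-Hochberg adjustment over all tested names. This log scale understates the change of low names. mRNA was tested likewise on log2(RPKM + 1) with a minimum of 1 RPKM. Named miRNAs are up to 12 in each direction with an adjusted p below 0.05, filled to 10 with names that do not overlap and average 50 RPM or more, and the most abundant name of each of 11 role lists. Other names are given as parts of a family sum, and they and the transcripts were chosen after their values were seen. The members and lists were chosen with earlier results of these data known. Simulated tables made from these libraries were used to check the fit. Alternatives were other pseudocounts, filters, scalings, a replicate block, the compared groups alone and each library left out. Voom on recovered reads, names above 0 in all compared libraries, the highest name of a number, a crossed block and the rescaling of the 2 libraries on another total to clean reads were added after the data were seen. A planned count test was not run, because the smallest listed values stand for 7 or more reads and steps of single reads could not be read from the RPM alone, and voom on the recovered reads was used in its place. No deposited column of another series was present. Figures were drawn with matplotlib.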

Additional observations from a re-analysis of the deposited data

Results flagged for a closer look

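For 3 named miRNAs the limma test of the ABA to NDGA difference at day 5 against that at day 8 passed, but the choice of tested names fixes this. For miR2089-3p the day 5 difference minus the day 8 difference was 7.23 (log2, adjusted p = 6.96e-07), for miR5286a it was 4.67 (adjusted p = 9.22e-06), and for miR5497 it was 4.37 (adjusted p = 7.33e-05). All 3 were listed at 0 in NDGA of both days and in ABA of day 8, and they reached the minimum of 10 RPM only through the 2 ABA libraries of day 5. They could be tested only because they differed, and the p-values are no support for a difference between days. The log2 values also depend on the added 1 RPM and bound no fold.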

How the results depend on the processing

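With 17 names called between ABA and NDGA at day 5, a filter of 50 RPM left 9, the replicate number as a block 11, names above 0 in all 4 libraries 5, and leaving out a library 5 to 12, where the lone sample is assumed to vary like the other groups. The remaining 11 settings of that count, with pseudocounts, scalings and the compared groups alone among them, gave 14 to 23. Rescaling the libraries on another total to clean reads ended the calls of miR157a-5p, miR319a-3p, miR482e-3p, miR774b-5p and miR5658 (limma, adjusted p = 0.0811 to 0.362). Of the 6 called names above 0 in all 4 libraries, only miR2875 kept its call there, and it was tested through ABA alone. Neither rescaled library is in this comparison, so its log2 differences stayed the same. For the names that lost their calls the SE grew, for miR319a-3p from 0.37 to 0.67 and for miR157a-5p from 0.64 to 1.01. Replicate numbers were not taken to pair the libraries, since the labels tie them to nothing shared and the deviations of equal numbers correlated above 0.1 for 8 of 21 pairs of groups, from -0.324 for ABA and NDGA at day 5 to 0.553 for water of day 5 and NDGA of day 8, whose second libraries are both on another total. Numbers exchanged in NDGA gave 14 calls. The 15 calls on sums by number became 8 with the filter of 50 RPM and 5 to 12 with a library left out. ABA against water, with 17 calls, gave 30 after rescaling to a common sum, 10 with the libraries on another total rescaled to clean reads, 4 for names above 0 in all its libraries and 5 to 21 with a library left out. NDGA against water, with 4, gave 7 without a filter, 2 with the filter of 50 RPM, 8 with the compared groups alone, 0 for names above 0 (limma, 5 at an unadjusted p below 0.05) and 4 to 10 with a library left out. ABA against NDGA at day 8, with 17, gave 4 for names above 0 and 8 to 24 with a library left out. The difference between days, with 8, gave 13 without a filter, 0 for names above 0 (limma, 6 at an unadjusted p below 0.05) and 5 to 13 with a library left out. The 47 calls on target transcripts became 20 with the compared groups alone and 24 to 29 with a library left out. Of the named miRNAs, miR159a-3p turned positive after rescaling to a common sum (0.29) and under quantile normalization (0.79), and miR167d under both (0.53 and 0.11) and median-ratio scaling (0.22). With a library left out, log2 differences ranged from -0.73 to 0.22 for miR159a-3p, -0.62 to 0.60 for miR167d, -0.31 to 0.94 for miR164b, -0.45 to 1.09 for miR408-3p, -5.23 to 6.05 for miR2118-5p and -1.27 to 5.07 for miR858a. The cause was not tested. Depth limits names near the smallest listed values of 7 to 11 reads.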
